A study of Rattus norvegicus with 12 samples.

Results

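The genes described here are 10 genes of the mammalian circadian clock, named Per1, Per2, Per3, Cry1, Cry2, Nr1d1, Nr1d2, Dbp, Clock and Bmal1 (also Arntl). They were listed by gene symbol, not by a cut on measured values, but with earlier results of these data known. Of the 10, 9 matched a row by Entrez identifier among the 16924 genes of the count files. Levels of Nr1d2 are not analysed here, and only its promoter window was searched. RNA was sequenced from rat cardiac progenitor cells of 1 clonal line kept in suspension, or plated on fibronectin, on laminin or on dishes without coating, with 3 libraries in each of the 4 groups. Fibronectin and laminin are extracellular matrix proteins that cells bind through different integrins. The labels give all 4 groups 2 h at low density with 0.1% fetal bovine serum, after growth in serum-containing medium with leukemia inhibitory factor, basic fibroblast growth factor, erythropoietin and glutathione. They do not describe how the suspension cells were held. Replicates 1, 2 and 3 of every group belong to batches 1, 2 and 3 in the labels. The file headers carry 1 date-like tag per batch, shared by its 4 libraries, and the hour of collection is not given in the sources used here.

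Library totals ran from 15875160 to 20852160 counts. Levels are given as CPM, the count of a gene divided by the library total and scaled to 1000000. Among markers of cardiac progenitors, Gata4 was measured at 88.4 CPM and Kit at 3.09 CPM over the 12 libraries, Tbx5 had 1 count, and Isl1 and Nkx2-5 had 0 counts, which allows up to 3. The mesenchymal gene Vim stood at 5125 CPM. The fibronectin, laminin and no coating libraries of batch 3 stood apart from the other 6 attached libraries: over the 10020 genes tested, 20.3% were higher in all 3 of them than in any of the 6, and another 20.3% were lower. Differences of the clock genes from suspension are therefore also given without batch 3. This is done where that changes a call or moves a value by over 1.5 times.

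The clock is a feedback loop of transcription that runs in nearly every cell, cardiac cells and cultured fibroblasts included. The proteins CLOCK and BMAL1 pair up and activate the Per, Cry, Nr1d and Dbp genes through E-box elements, and PER and CRY proteins then return to the nucleus and repress that activation. REV-ERB alpha, the product of Nr1d1, represses Bmal1 through ROR elements, and DBP activates genes that carry D-boxes, so that transcripts of Bmal1 and those of Nr1d1 and Dbp peak at opposite times of the day. Serum and cyclic AMP signals act on the loop by a faster route, inducing Per1 and Per2.

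Rat promoter windows from RefSeq (build GRCr8), each running from 250 bases before to 50 bases after an annotated start, were searched on both strands for the letters of these elements. The E-box was searched as CACGTG, its variant as CACGTT, the D-box as TTATGTAA or TTACGTAA, the ROR element as TAGGTCA or TGGGTCA, and the cyclic AMP element as TGACGTCA. The table holds 11 windows for 9 of the 10 genes, with Nr1d2 and without Cry1. The E-box was found in 1 window, of Nr1d1, against 6.42% of the 33469 windows of all genes. The E-box variant was found in 3 windows, of Per2, Cry2 and Nr1d1, against 4.83% of all windows. The D-box was found in Per2 alone (1.01% of all windows) and the ROR element in Bmal1 alone (6.60%). The cyclic AMP element was in none of the 11 (1.83%). The matches do not overlap one another. The windows of Nr1d1 are shown because they hold the E-box, and those of Per2 and Bmal1, added after the matches were seen, because they hold the D-box and the ROR element. Capitals mark the matches, and each window reads 5′ to 3′ on the strand of the gene. The first Nr1d1 window is on the minus strand at chr10:84229405-84229704, at an annotated start inside the gene, and its capitals are an E-box 191 bases before that start. The second is on the minus strand at chr10:84231763-84232062, at the upstream start, and its capitals are the E-box variant on the opposite strand. The Per2 window is on the minus strand at chr9:99496944-99497243, with a D-box 192 and an E-box variant 62 bases before the start. The Bmal1 window is on the plus strand at chr1:176766078-176766377, with a ROR element 16 bases before the start.
Nr1d1, internal start: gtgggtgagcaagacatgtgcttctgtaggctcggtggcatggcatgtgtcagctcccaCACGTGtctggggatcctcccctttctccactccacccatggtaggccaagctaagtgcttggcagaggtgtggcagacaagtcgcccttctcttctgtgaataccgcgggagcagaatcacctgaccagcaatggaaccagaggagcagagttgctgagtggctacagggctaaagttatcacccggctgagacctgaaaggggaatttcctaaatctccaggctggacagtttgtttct
Nr1d1, upstream start: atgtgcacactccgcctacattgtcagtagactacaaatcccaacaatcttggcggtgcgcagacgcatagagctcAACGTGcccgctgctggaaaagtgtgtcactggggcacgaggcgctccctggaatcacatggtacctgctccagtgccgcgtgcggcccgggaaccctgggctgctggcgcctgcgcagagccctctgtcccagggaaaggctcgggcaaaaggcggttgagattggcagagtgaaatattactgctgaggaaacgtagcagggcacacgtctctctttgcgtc
Per2: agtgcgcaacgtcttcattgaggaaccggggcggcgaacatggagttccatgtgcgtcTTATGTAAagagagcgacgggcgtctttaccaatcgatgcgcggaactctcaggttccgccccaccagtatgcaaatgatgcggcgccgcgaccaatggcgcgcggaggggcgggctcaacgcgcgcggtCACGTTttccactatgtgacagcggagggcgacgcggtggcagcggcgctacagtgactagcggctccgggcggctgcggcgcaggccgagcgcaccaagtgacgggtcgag
Bmal1: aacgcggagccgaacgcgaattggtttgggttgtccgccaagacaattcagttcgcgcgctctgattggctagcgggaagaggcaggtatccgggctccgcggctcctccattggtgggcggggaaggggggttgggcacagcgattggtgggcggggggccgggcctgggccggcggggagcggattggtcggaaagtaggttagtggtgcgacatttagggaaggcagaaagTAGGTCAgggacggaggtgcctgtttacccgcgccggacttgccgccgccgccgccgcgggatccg

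Nr1d1 (Entrez 252917), which encodes the repressor REV-ERB alpha, was higher by test on all 3 surfaces than in suspension. In the fit without a batch term it was the single clock gene so called. With the batch as a block, Cry1 and Cry2 were also called higher on all 3 surfaces. Nr1d1 was measured at 36.3, 26.4 and 29.8 CPM in suspension 1, 2 and 3. On fibronectin it stood at 48.8, 42.7 and 54.7 CPM, on laminin at 41.5, 38.3 and 57.4 CPM, and without coating at 44.2, 42.0 and 52.1 CPM. Every attached library lay above every suspension library, and in each attached group batch 3 was highest and batch 2 lowest. The rise was 0.70 ± 0.16 (log2 fold change ± SE) on fibronectin (edgeR quasi-likelihood test, Benjamini-Hochberg adjusted p = 0.0196), 0.57 ± 0.16 on laminin (edgeR, adjusted p = 0.0300) and 0.60 ± 0.16 without coating (edgeR, adjusted p = 0.0314), or 1.62-fold, 1.48-fold and 1.51-fold. Within batches 1, 2 and 3 the log2 difference from suspension was 0.43, 0.69 and 0.88 on fibronectin, 0.19, 0.53 and 0.95 on laminin, and 0.28, 0.67 and 0.80 without coating, so it was smallest in batch 1 and largest in batch 3 on each surface. In bulk RNA, more cells that express a gene and more RNA per cell cannot be told apart.

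The 3 calls of Nr1d1 each rest on few libraries. On fibronectin the call ended without suspension 2, suspension 3, fibronectin 1 or fibronectin 3 (edgeR, adjusted p up to 0.0872), on laminin without suspension 2, suspension 3 or laminin 3 (edgeR, adjusted p up to 0.106), and without coating when suspension 2 or 3 or any no coating library was left out (edgeR, adjusted p up to 0.117). Without batch 3 the rise was 0.59 on fibronectin (edgeR, adjusted p = 0.0322), 0.36 on laminin (edgeR, adjusted p = 0.0989) and 0.50 without coating (edgeR, adjusted p = 0.0505). The laminin value thus shrank by more than 1.5 times without that batch. With library size as the only scaling the call without coating was also lost (edgeR, adjusted p = 0.0577). With only the 2 groups compared in the fit, the calls on laminin and without coating were lost (edgeR, adjusted p = 0.0587 and 0.0510). Of the summed markers of other cell types, 3 lists were higher in all attached libraries than in suspension and 2 overlapped. The 5 leukocyte markers summed to between 34.2 and 36.9 CPM in suspension and between 49.0 and 62.5 CPM in attached libraries, nearly all of it Cd14, with 3 counts of Ptprc and 5 of Lyz2 over the 12 libraries. The 6 cardiomyocyte markers summed to between 2.00 and 2.78 CPM in suspension and between 4.49 and 6.70 CPM in attached libraries. Most of it was Tnnt2, at 4.32 CPM over the 12 libraries, with 0 counts of Myh7 and 1 of Myh6. The 4 endothelial markers found, of 5, went from between 1.16 and 1.39 CPM to between 1.67 and 2.40 CPM. The 6 fibroblast and mesenchyme markers, mostly Vim, overlapped, at 6400 to 7153 CPM in suspension and 7038 to 7674 CPM in attached libraries. So did the 3 smooth muscle markers found, of 4, mostly Tagln, at 164 to 224 and 180 to 227 CPM. The part of such cells in the Nr1d1 result was not tested.

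**Figure D1:**
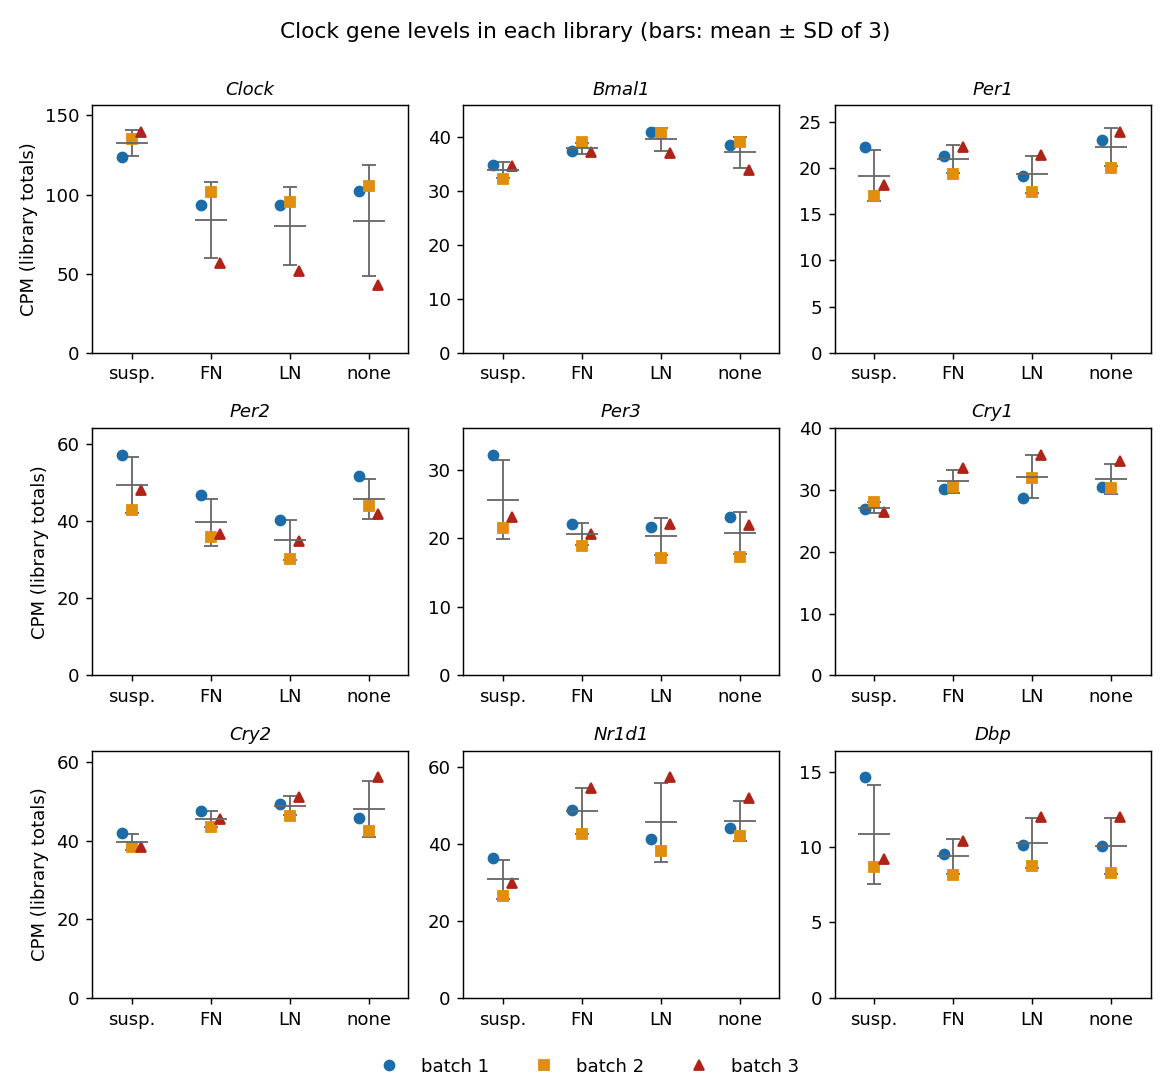
Level of each of the 9 clock genes in every library, in CPM from library totals (vertical axes, each starting at 0), for suspension (susp.), fibronectin (FN), laminin (LN) and no coating (none). Symbols are batches, and grey bars are the mean and SD of 3 libraries. Nr1d1 is higher in all 9 attached libraries than in suspension, and Clock is lowest in the 3 attached batch 3 libraries.

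Clock (Entrez 60447), which encodes the DNA-binding partner of BMAL1, was lower in every attached library than in any suspension library, by very different amounts in different batches. It was measured at 124, 135 and 140 CPM in suspension 1, 2 and 3. On fibronectin it stood at 93.3, 102 and 56.4 CPM, on laminin at 93.4, 95.5 and 51.4 CPM, and without coating at 102, 105 and 42.9 CPM. Batches 1 and 2 lay close together on each surface and batch 3 far below them. Over all 3 batches the difference from suspension was -0.63 ± 0.36 on fibronectin, -0.72 ± 0.36 on laminin and -0.64 ± 0.36 without coating, and none passed (edgeR, adjusted p = 0.285, 0.169 and 0.231). Without batch 3 the differences were smaller and far less variable: -0.37 ± 0.08 on fibronectin and -0.44 ± 0.08 on laminin, which passed (edgeR, adjusted p = 0.0273 and 0.00907), and -0.29 ± 0.08 without coating, which did not (edgeR, adjusted p = 0.0540). Leaving out no coating 3 alone brought the last to -0.32.

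Bmal1 (Entrez 29657), the partner of CLOCK in the activating dimer, varied little. It stood at 34.8, 32.1 and 34.6 CPM in suspension, at 37.3, 39.1 and 37.1 CPM on fibronectin, at 40.9, 40.7 and 37.0 CPM on laminin, and at 38.5, 39.0 and 33.8 CPM without coating. The fibronectin and laminin libraries lay above all suspension libraries, whereas no coating 3 lay within the suspension range. The difference from suspension was 0.20 ± 0.09 on fibronectin, 0.23 ± 0.09 on laminin and 0.15 ± 0.09 without coating (edgeR, adjusted p = 0.186, 0.0950 and 0.251), so none passed. Without batch 3 the laminin difference, 0.30, passed (edgeR, adjusted p = 0.0320), and that without coating was 0.25 (edgeR, adjusted p = 0.0791). The laminin difference also passed without no coating 3 (edgeR, adjusted p = 0.0478).

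The Per genes encode the scaffold proteins of the repressing complex. Per2 (Entrez 63840) stood at 57.3, 42.9 and 48.0 CPM in suspension, at 46.8, 35.8 and 36.6 CPM on fibronectin, at 40.3, 30.1 and 34.8 CPM on laminin, and at 51.6, 43.9 and 41.9 CPM without coating. The order of the means was suspension, no coating, fibronectin and laminin, at 49.4 ± 7.28, 45.8 ± 5.14, 39.7 ± 6.12 and 35.1 ± 5.14 CPM (SD, n = 3), and neighbours in that order had overlapping libraries. The laminin and suspension libraries did not overlap. The difference between them was -0.49 ± 0.16 (edgeR, adjusted p = 0.0534), just short of the threshold, and it passed by DESeq2 (adjusted p = 0.0229), and by edgeR when fibronectin 1, laminin 1 or no coating 3 was left out. It was close to equal in the 3 batches, at -0.51, -0.51 and -0.46. On fibronectin Per2 differed by -0.27 ± 0.16 and without coating by -0.09 ± 0.16 (edgeR, adjusted p = 0.294 and 0.721). These became -0.17 and 0.02 without suspension 1, and the value without coating was -0.03 without batch 3.

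Per3 (Entrez 78962), the member of the family least needed for rhythm, ranged from 21.6 to 32.3 CPM in suspension and from 17.2 to 23.1 CPM in attached libraries. It differed from suspension by -0.28 ± 0.16 on fibronectin, -0.33 ± 0.16 on laminin and -0.28 ± 0.16 without coating (edgeR, adjusted p = 0.300, 0.165 and 0.250). Its direction was lower in all 3 batches on each surface, but the groups overlapped and suspension 1 stood alone at the top. Without suspension 1 the differences were -0.10, -0.15 and -0.10. Per1 (Entrez 287422), the Per gene that responds fastest to serum and cyclic AMP, ranged from 17 to 22.3 CPM in suspension and from 17.4 to 23.9 CPM in attached libraries, so the groups overlapped throughout. Its differences from suspension were 0.17 ± 0.11, 0.01 ± 0.11 and 0.24 ± 0.11 on fibronectin, laminin and no coating (edgeR, adjusted p = 0.366, 0.946 and 0.177). They were 0.10, -0.09 and 0.17 without batch 3, and 0.28, 0.12 and 0.34 without suspension 1.

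The Cry genes encode the proteins that carry out the repression of CLOCK and BMAL1. Cry2 (Entrez 170917) stood at 41.9, 38.3 and 38.5 CPM in suspension, at 47.6, 43.4 and 45.7 CPM on fibronectin, at 49.3, 46.3 and 51.1 CPM on laminin, and at 45.9, 42.5 and 56.2 CPM without coating. All attached libraries were above all suspension libraries. The rise passed on laminin, at 0.31 ± 0.09 (edgeR, adjusted p = 0.0424), and not on fibronectin, at 0.24 ± 0.09, or without coating, at 0.30 ± 0.09 (edgeR, adjusted p = 0.127 and 0.0587). The laminin call ended when any single library other than no coating 2 or no coating 3 was left out (edgeR, adjusted p up to 0.132), and without batch 3 the difference was 0.27 (edgeR, adjusted p = 0.0857). The difference without coating was 0.17 without batch 3 and 0.20 without no coating 3 (edgeR, adjusted p = 0.279 and 0.202), and it passed when no coating 2 was left out. Cry1 (Entrez 299691) ranged from 26.4 to 28.1 CPM in suspension and from 28.8 to 35.8 CPM in attached libraries, again without overlap. Its difference was 0.24 ± 0.09 on each surface (edgeR, adjusted p = 0.0972 on fibronectin, 0.0676 on laminin and 0.0832 without coating), and none passed. On laminin it was 0.16 without batch 3 (edgeR, adjusted p = 0.262), and it passed when laminin 1 was left out.

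Dbp (Entrez 24309), a D-box activator whose transcript is one of the most strongly cycling outputs of the clock, stood at 14.6, 8.70 and 9.19 CPM in suspension. It stood at 9.57, 8.14 and 10.4 CPM on fibronectin, at 10.1, 8.73 and 12 CPM on laminin and at 10.1, 8.25 and 12 CPM without coating. Suspension 1 was the highest of all 12 libraries, and the groups overlapped on each surface. Its differences from suspension were -0.17 ± 0.20, -0.07 ± 0.20 and -0.08 ± 0.20 on fibronectin, laminin and no coating (edgeR, adjusted p = 0.618, 0.817 and 0.799). They were -0.35, -0.29 and -0.30 without batch 3, and 0.09, 0.19 and 0.18 without suspension 1. Within batches the sign was not constant: on laminin the log2 difference was -0.53, 0.00 and 0.39 in batches 1, 2 and 3.

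**Figure D2:**
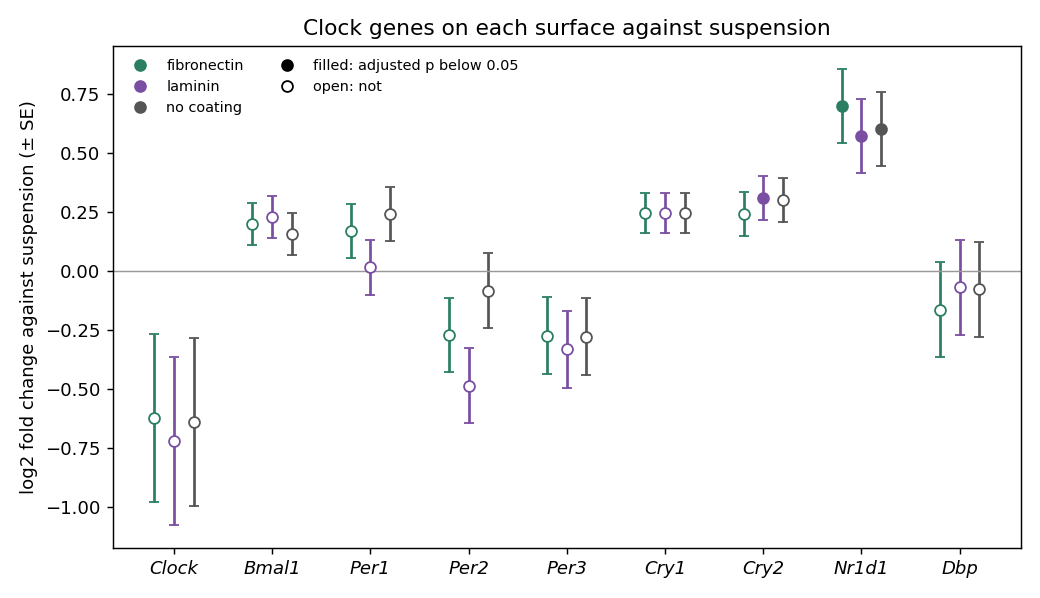
Log2 fold change (± SE, edgeR) of each clock gene against suspension on fibronectin, laminin and no coating. Filled symbols have a Benjamini-Hochberg adjusted p below 0.05: Nr1d1 on each surface and Cry2 on laminin. The 3 comparisons share the suspension libraries.

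In counts, 1 of 9 clock genes was called on fibronectin (Nr1d1, higher), 2 on laminin (Nr1d1 and Cry2, higher) and 1 without coating (Nr1d1, higher), where called means an adjusted p below 0.05 in the fit over all genes. Over the 10020 genes tested the share called was 9.67%, 19.0% and 12.6% in these comparisons, so the clock genes' counts were near the background. The median log2 difference of the 9 genes was 0.17, 0.01 and 0.15, beside 0.00, -0.01 and 0.00 over all genes tested. Groups that did not overlap with suspension were found for 5 clock genes on fibronectin (4 higher, 1 lower), 6 on laminin (4 higher, 2 lower) and 4 without coating (3 higher, 1 lower), against 40.6%, 44.9% and 41.1% of all genes tested. With the batch as a block, 6, 7 and 6 of the 9 were called on fibronectin, laminin and no coating, against 28.7%, 43.2% and 38.8% of all genes. Nr1d1, Cry1 and Cry2 were then higher and Per3 and Clock lower on each surface. Per2 was then lower on fibronectin and laminin, Bmal1 higher on laminin and Per1 higher without coating. The block takes a batch shift to be equal in all groups. For 8 of the 9 clock genes, all but Per2, the shift of batch 3 had opposite signs in suspension and in all attached groups. The same was found for 37.4% of the 10020 genes tested.

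Between the attached groups no clock gene was called by edgeR: 0 of 9 for laminin against fibronectin, fibronectin against no coating and laminin against no coating. Over all genes 0.150%, 0.180% and 0% were called, and for the last comparison 156 genes had an unadjusted p below 0.05 by edgeR and 105 by DESeq2, which also called 0. Among the clock genes 0, 0 and 1 had an unadjusted p below 0.05 by edgeR, and 0, 0 and 1 by DESeq2, with no adjusted call. The exception was Per2, at -0.40 ± 0.16 on laminin against no coating (edgeR, unadjusted p = 0.0279, adjusted p = 1), lower on laminin in all 3 batches. The log2 differences of the 9 genes lay between -0.22 and 0.10 for laminin against fibronectin, between -0.19 and 0.10 for fibronectin against no coating, and between -0.40 and 0.07 for laminin against no coating. A difference that misses the threshold does not show that the surfaces act alike.

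Levels of the clock genes differed between batches in 2 separate ways, the second at counts near the share of all genes. The first was shared by suspension and attached cells. Per1, Per2, Per3, Cry2, Nr1d1 and Dbp were each lower in batch 2 than in batch 1 in all 4 groups, that is 6 of 9 clock genes against 18.5% of all genes tested. This pattern was picked out after the values were seen, and the same 6 of 9 were found with TMM scaling, where the share of all genes was 19.4%. In suspension the log2 difference of batch 2 from batch 1 was -0.75 for Dbp, -0.58 for Per3, -0.46 for Nr1d1, -0.42 for Per2 and -0.39 for Per1. In attached cells it was smaller for Dbp, between -0.29 and -0.21, and for Nr1d1, between -0.19 and -0.07. For Per2 it was about as large on fibronectin and laminin, at -0.39 and -0.42, and smaller without coating, at -0.23. Clock was higher in batch 2 than in batch 1 in all 4 groups, by 0.03 to 0.13, and Cry1 and Bmal1 had no constant sign. Each batch is 1 event shared by its libraries, so no p is given for a difference between batches.

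The second difference was that of batch 3 from batches 1 and 2, and it was seen in attached cells. In all 3 attached libraries of batch 3, Cry1, Nr1d1 and Dbp lay above, and Clock and Bmal1 below, the 6 attached libraries of batches 1 and 2. That is 3 of 9 clock genes higher, against the 20.3% of all genes given above, and 2 of 9 lower, against the other 20.3%. These counts were near the background. Clock was lower in batch 3 than the mean of batches 1 and 2 by log2 values of -0.79 on fibronectin, -0.88 on laminin and -1.28 without coating, or 0.578, 0.544 and 0.413 times that mean. Of all genes tested, 3.17%, 6.15% and 3.16% were shifted down by as much or more on these surfaces. In suspension Clock was higher in batch 3, by 0.11. The difference of batch 2 from batch 1 in Clock was 0.03 to 0.13, far below the shift of batch 3.

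The other shifts of attached batch 3 were smaller. Nr1d1 was higher by 0.26, 0.53 and 0.27 on fibronectin, laminin and no coating, and lower by 0.06 in suspension (log2 difference -0.06). Dbp was higher by 0.24, 0.35 and 0.39 and its difference in suspension was -0.30. Cry1 was higher by 0.15, 0.24 and 0.19, with -0.06 in suspension. Bmal1 was lower by a narrow margin: its differences were -0.04, -0.14 and -0.20, its level in fibronectin 3 (37.1 CPM) was just under that of fibronectin 1 (37.3 CPM), and in suspension the difference was 0.05. Per2 did not follow, at -0.16, -0.0022 and -0.19, nor did Per1 and Per3 separate from the other batches. With TMM scaling Nr1d1 no longer separated, since no coating 3 (50.6 CPM) then lay just below fibronectin 1 (50.7 CPM).

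**Figure D3:**
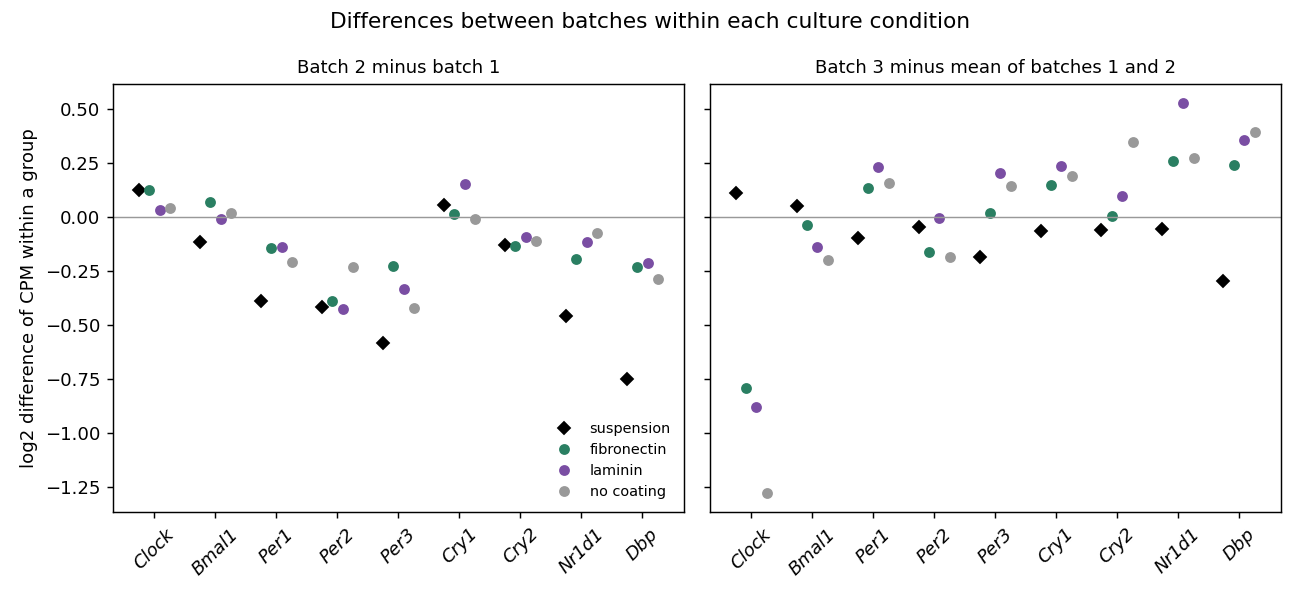
Log2 differences of CPM between batches within each culture condition, batch 2 minus batch 1 on the left and batch 3 minus the mean of batches 1 and 2 on the right. Diamonds are suspension and circles the attached groups. On the left, 6 genes are below 0 in every group. On the right, Clock is at -0.79, -0.88 and -1.28 in attached cells and at 0.11 in suspension.

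Clock phase is read from genes that peak at opposite times, so the ratio of each gene to Bmal1 was taken in each library. Such a ratio does not depend on the scaling of libraries. It is not corrected for gene length, and its differences between libraries are what is read. The log2 ratio of Nr1d1 to Bmal1 lay between 0.56 and 0.63 in the 3 attached libraries of batch 3, between -0.09 and 0.39 in the other 6 attached libraries and between -0.28 and 0.06 in suspension. The Dbp ratio was between -1.83 and -1.50 in attached batch 3, between -2.26 and -1.94 in attached batches 1 and 2, and between -1.91 and -1.25 in suspension. In attached cells batch 3 was thus above batches 1 and 2 in both ratios without overlap.

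The Cry1 ratio behaved in the same way, between -0.14 and 0.04 in attached batch 3 against between -0.51 and -0.30 in attached batches 1 and 2. The Per2 ratio did not: it lay between -0.09 and 0.31 in attached batch 3 and between -0.44 and 0.42 in attached batches 1 and 2, which overlap. The Clock ratio, added after its values were seen, was lowest in attached batch 3, between 0.34 and 0.60, against 1.19 to 1.43 in attached batches 1 and 2 and 1.83 to 2.07 in suspension. Suspension 3 lay between suspension 1 and 2 in the Nr1d1, Per2 and Clock ratios and just below both in the Dbp and Cry1 ratios. The ratios of Per1, Per3 and Cry2 overlapped as well: in attached batch 3 they reached down to -0.79, -0.84 and 0.30, and in attached batches 1 and 2 up to -0.74, -0.74 and 0.35. Attached batch 3 thus lay above the other attached libraries in 3 of 8 ratios, below them in 1 and overlapped them in 4. The same ratio to Bmal1 separated upward for 35.4% and downward for 15.2% of the other genes tested, a share computed after the ratios were seen, so the clock genes' counts were near the background. Each culture was sampled once, at 2 h, with no series of times, so no phase was estimated, and a shift in phase and the other differences of batch 3 cannot be told apart.

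**Figure D4:**
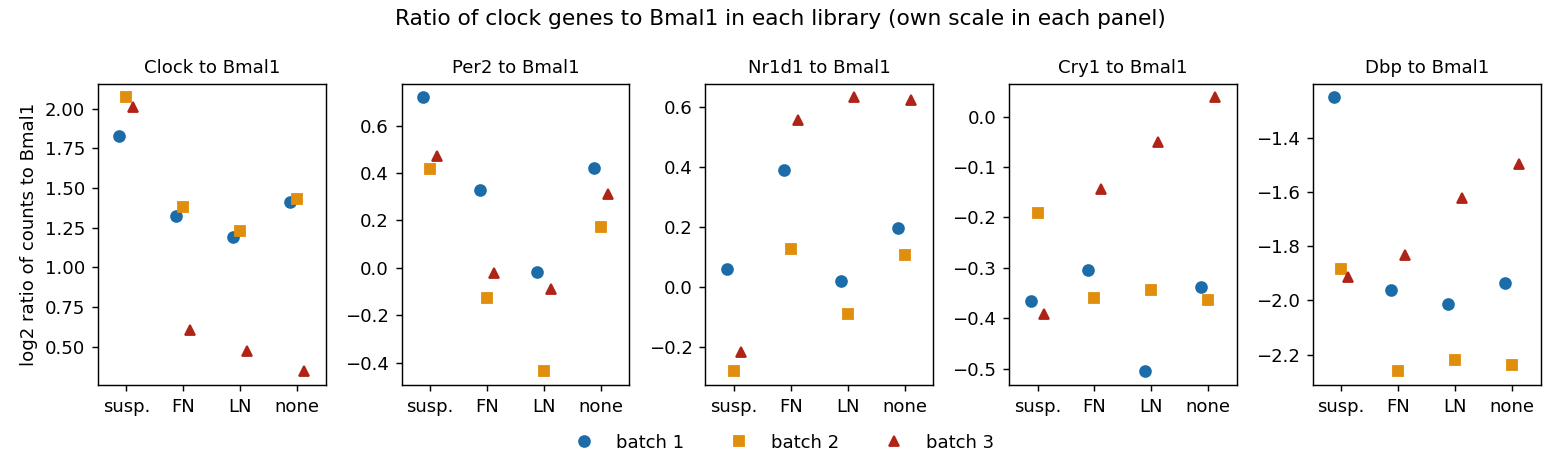
Log2 ratio of the counts of Clock, Per2, Nr1d1, Cry1 and Dbp, 5 of the 8 genes compared, to those of Bmal1 in each of the 12 libraries, with a scale of its own in each panel and symbols for batches. In the attached groups batch 3 (triangles) is lowest for Clock, at 0.34 to 0.60, and highest for Nr1d1, Cry1 and Dbp, but not for Per2.

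Of 31 related clock genes listed by role, 25 had a row and all 25 were tested. On fibronectin 0 were higher and 1 was lower, on laminin 4 were higher and 4 lower, and without coating 2 were higher and 2 lower, to be read against the 9.67%, 19.0% and 12.6% above. With the block the counts were 4 higher and 6 lower, 5 and 8, and 5 and 8, to be read against the blocked shares of 28.7%, 43.2% and 38.8%. Among activators, Npas2, a paralogue of Clock that can pair with BMAL1 in its place, fell on each surface, by 0.33 ± 0.09, 0.49 ± 0.09 and 0.38 ± 0.09 on fibronectin, laminin and no coating (edgeR, adjusted p = 0.0419, 0.00527 and 0.0202). Bmal2, the paralogue of Bmal1, fell on laminin by 0.78 ± 0.21 (edgeR, adjusted p = 0.0291). Among the outputs, Tef, which encodes a D-box activator related to DBP, rose by 0.52 ± 0.14 on laminin and by 0.52 ± 0.14 without coating (edgeR, adjusted p = 0.0236 and 0.0308).

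Of the genes whose proteins modify PER and CRY, Csnk1d, the kinase that phosphorylates PER, rose by 0.24 ± 0.07 on laminin and 0.26 ± 0.07 without coating, and Btrc, part of the ubiquitin ligase that acts on PER, rose by 0.24 ± 0.07 on laminin. Nono, an RNA-binding partner of PER, rose by 0.19 ± 0.05 on laminin. Among the fast input factors Creb1 fell by 0.80 ± 0.23 both on laminin and without coating, and Sik1, a kinase that damps the response of Per1 to light and cyclic AMP, fell by 0.72 ± 0.18 on laminin. Like Clock, Creb1 was lower in attached batch 3 than in the mean of attached batches 1 and 2, by log2 values of -0.39, -0.70 and -0.49, and higher in suspension 3, by 0.32. Without batch 3 its log2 difference from suspension was -0.49 on laminin and -0.54 without coating. Neither passed (edgeR, adjusted p = 0.0540 and 0.0542). Of these 13 calls, Npas2 on laminin was the 1 that held whichever of the 12 libraries was left out, and 3 held without batch 3: Npas2, Nono and Sik1 on laminin. The other calls were lost without at least 1 library. Bmal2 lost its call without suspension 1, suspension 3, laminin 2 or laminin 3, and Npas2, in its comparison without coating, lost it when replicate 1 or 2 of suspension or replicate 2 or 3 of no coating was dropped. Each of the rest was lost without suspension 2 and without suspension 3. On laminin this was also so without laminin 1 or 3 for Tef, without suspension 1, laminin 1 or laminin 3 for Csnk1d, without laminin 3 for Creb1 and without laminin 1 for Sik1. Nono was also lost without suspension 1, any laminin library or no coating 2, and Btrc without any library but no coating 3. Without coating, Tef was also lost without no coating 2 or 3, Csnk1d without suspension 1, no coating 2 or no coating 3, and Creb1 without any library but suspension 1, fibronectin 3 and laminin 3. Npas2 on fibronectin was lost without any library but laminin 3, no coating 1 and no coating 3.

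The genes whose log2 CPM followed a clock gene most closely over the 12 libraries were ranked among 8669 genes by Pearson's r, as a description. Nr1d1 was nearest to Mnt (r = 0.97), Hps6 (0.97) and Sp2 (0.96), Bmal1 to genes that include Zfp870 and Qrich1 (0.96 and 0.95), Dbp to Usp11, Fbxw5 and Oplah (0.96, 0.92 and 0.91), and Per2 to Sel1l, Mapk8ip3 and Zfp532 (0.91, 0.90 and 0.90). The libraries share 4 conditions and 3 batches, so they are not independent points. The clock genes themselves were left out of the search.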

How the data were processed

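RNA was made into libraries with a stranded total RNA kit, per the labels' protocols. The authors deposited raw read counts per Entrez gene, 1 file per library, whole numbers in every file; the build is rn4, per the submitters' processing notes, and no source used here names the aligner, counter or strand setting. Whether reads of overlapping antisense genes were kept apart is therefore not known. Symbols came from the RefSeq table of GRCr8, which named 16761 of 16924 identifiers; no coordinate of rn4 was converted.

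Counts were tested with edgeR 4.0.16 (glmQLFit, glmQLFTest) in R 4.3.3 after filterByExpr, which left 10020 genes, with TMM factors between 0.962 and 1.03. A means model of the 4 groups over 12 libraries, without a batch term, had 8 residual degrees of freedom; p-values were adjusted over all genes tested by Benjamini-Hochberg, threshold 0.05. The fit was tested on simulated counts without batch differences, so that test does not cover the batch differences of these data. The log2 CPM used for likeness have a prior count of 2. The labels put the libraries of a replicate number into 1 batch, which pairs them. Deviations from group means correlated across genes with a median r of 0.409 over 18 same-batch pairs and -0.124 over 36 others. Among the same-batch pairs the median r was 0.675 over 9 with both libraries attached and 0.197 over 9 with 1 in suspension. The blocked fit had 6 residual degrees of freedom. The alternatives were DESeq2 1.42.0, library size only, no filter, the block, 2 groups only, and libraries or batch 3 left out. Libraries of a clonal line are replicates by batch, not by animal. P-values of the fit without a batch term therefore measure spread between batches, which may be technical. Those of the blocked fit rest on the spread left after a batch shift taken to be equal in all groups.

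The members, the related genes and the naming rule were chosen with earlier results of these data known. The rule names all members, related genes called in at least 1 of the 6 comparisons, and the 3 genes most alike to Per2, Nr1d1, Dbp and Bmal1 with mean log2 CPM of at least 2; 1 of these is not reported here. Promoters were to be printed for genes with an E-box or a cyclic AMP element; those of Per2 and Bmal1 were added after their matches were seen.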

Additional observations from a re-analysis of the deposited data

Results flagged for a closer look

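In 8 of the 9 clock genes, batch 3 departed from the mean of batches 1 and 2 in one direction in all 3 attached groups and in the opposite direction in suspension. The measure is log2 of CPM plus 0.5, and the value given is the mean shift of the attached groups minus the shift in suspension. It was -1.08 for Clock and -0.17 for Bmal1. It was 0.60 for Dbp, 0.41 for Nr1d1, 0.30 for Per3, 0.27 for Per1, 0.25 for Cry1 and 0.21 for Cry2. Per2, at -0.07, moved down in both. The same opposition of signs was found in 37.4% of the 10020 genes tested. Suspension has 1 library in batch 3, and the difference was not tested.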

How the results depend on the processing

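The number of clock genes called against suspension depended on the processing, and where it or a direction changed the cause was not tested. On fibronectin the count of 1 became 6 with the replicate block and 2 without batch 3, and 0 to 1 when single libraries were left out. On laminin the count of 2 became 7 with the replicate block and 3 by DESeq2 (Per2 added). It was 1 with library size only or with no filter on low counts (Nr1d1), and 1 with the 2 groups alone (Cry2). When single libraries were left out it was 0 to 4. Without batch 3 it was 2 again, but these were Clock and Bmal1. Without coating the count of 1 became 6 with the replicate block, 2 by DESeq2, and 0 with library size only, with the 2 groups alone or without batch 3. When single libraries were left out it was 0 to 1, and without no coating 2 the gene called was Cry2, not Nr1d1. Between attached groups it was 0 under every alternative, the block included. The shares of all genes called on fibronectin, laminin and no coating were 28.7%, 43.2% and 38.8% with the block, 9.25%, 18.9% and 12% without batch 3, 13.2%, 22.2% and 16.6% by DESeq2, 7.12%, 14.6% and 9.11% with library size only, 5.85%, 11.4% and 7.32% with no filter, 14.1%, 15.8% and 4.66% with the 2 groups alone, and 4.08% to 12.9%, 7.89% to 24.7% and 5.32% to 14.4% when single libraries were left out. Related genes went from 1, 8 and 4 calls on fibronectin, laminin and no coating to 10, 13 and 13 with the block, 0, 3 and 0 without batch 3, 3, 10 and 6 by DESeq2, 1, 5 and 2 with library size only, 0, 5 and 3 with no filter, and 3, 2 and 0 with the 2 groups alone; these counts were added after the data were seen.

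Of the 54 log2 fold changes of clock genes, 4 were calls. Over 18 alternatives each, Nr1d1 stayed past the threshold in 14 on fibronectin, 13 on laminin and 10 without coating. Cry2 on laminin did so in 5. Of 972 alternative values of all 54, 845 kept direction and side of the threshold, 30 lost a call and 26 gained one. Another 71 changed sign, 68 of them with both values below their SE. The other 3 were these. Dbp on laminin ranged from -0.19 to 0.19 and without coating from -0.20 to 0.18 over left-out libraries, the highest without suspension 1. Clock on fibronectin against no coating ranged from -0.31 without no coating 3 to 0.24. Clock genes of attached batch 3 outside the range of batches 1 and 2 numbered 5, 4 with TMM scaling and 5 to 6 with a library left out.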
